A study of Mus musculus with 9 samples.

Results

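The genes that make sterols and fatty acids were followed in mouse primary renal tubular epithelial cells (TECs) after hypoxia and reoxygenation and after Egr1 overexpression. The set held 28 genes of the 31167 in the expression table, and each was taken by its gene symbol. In its order along the pathway it held the SREBP factors with Insig1 (3 genes), the mevalonate steps up to farnesyl diphosphate (7), the steps from squalene to cholesterol (11), the sterol transfer protein Stard4 (1) and fatty acid synthesis and desaturation (6). All 28 genes were present in the table and all 28 passed the filter on low values.

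RNA was sequenced in 9 libraries of TECs isolated from the kidneys of C57BL/6 mice, 3 from each of 3 groups. The Sham group was the negative control and is described by the study as untreated. In the H/R group, cells were held for 6 h in hypoxia (1.0% O2, 5% CO2, 94% N2) while deprived of glucose, followed by 18 h of reoxygenation in full medium. The EGR1OV group received a plasmid that expresses Egr1, a zinc-finger transcription factor, from the CMV promoter, which is not restricted to a cell type. No group with an empty plasmid was among those compared, so the Egr1 insert and the transfection cannot be told apart. The study lists H/R and the plasmid as alternative treatments of the sequenced cells, yet its general methods place H/R after transfection, and the protocol text of every sample, Sham included, names both. Whether the EGR1OV cells also went through H/R, and whether Sham and H/R cells met the transfection reagent, is therefore not certain. The labels do not say that the 3 libraries of a group came from separate cultures, so p-values measure only the spread between these libraries, which may be technical.

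Levels are in FPKM, a fragment count corrected for exon length and library size, and can be compared between genes. Library depth, recovered from the FPKM steps, ran from 16183617 to 18384022 reads, and the least abundant member, Fdps, still rested on 71 to 122 reads. The check of the targeted gene held in every library, since Egr1 was at 6.20, 6.91 and 6.09 FPKM in Sham, at 8.57, 7.59 and 7.48 FPKM in H/R and at 45.7, 42.2 and 40.1 FPKM in EGR1OV. Of the markers of the labelled cell type, all 9 of the general tubule epithelium were detected, with summed levels of 2007 to 2046 FPKM in Sham, 1863 to 1947 FPKM in H/R and 1310 to 1420 FPKM in EGR1OV. Of the 7 proximal tubule markers, 4 (Slc34a1, Slc5a2, Slc22a6 and Slc27a2) were at or near 0 in every group, and the 7 together summed to 5.48 to 5.53 FPKM in Sham, 4.84 to 5.31 FPKM in H/R and 1.92 to 2.22 FPKM in EGR1OV. One small RNA gene, Gm23935, took from 0.541% to 7.34% of the summed FPKM of a library and differed by library rather than by group.

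Cholesterol and unsaturated fatty acids are made from acetyl-CoA in the cytosol and endoplasmic reticulum. When sterols in the endoplasmic reticulum are low, the SREBP transcription factors are carried to the Golgi, cut by proteases and released to the nucleus, where they switch on nearly every enzyme of both routes. Insig proteins hold SREBPs back when sterols are plentiful, and Insig1 is itself an SREBP target.

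Promoter letters are shown for 4 members that were called in at least 1 comparison and have an upstream window (RefSeq, GRCm38.p6). They were chosen after the expression values were seen. Capitals mark an SRE (TCACNCCAC, a sterol regulatory element bound by SREBPs), a CCAAT box (CCAAT, or ATTGG on the other strand, bound by NF-Y) or an EGR1 motif (GCGNGGGCG). Each line runs 5′ to 3′ on the gene's strand.
Hmgcs1, chr13:119690101-119690330, plus strand: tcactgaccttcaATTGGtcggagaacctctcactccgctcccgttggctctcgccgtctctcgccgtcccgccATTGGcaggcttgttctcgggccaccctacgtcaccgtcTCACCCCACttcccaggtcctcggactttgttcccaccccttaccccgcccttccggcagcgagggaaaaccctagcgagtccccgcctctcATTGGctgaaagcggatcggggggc
Insig1, chr5:28071176-28071310, plus strand: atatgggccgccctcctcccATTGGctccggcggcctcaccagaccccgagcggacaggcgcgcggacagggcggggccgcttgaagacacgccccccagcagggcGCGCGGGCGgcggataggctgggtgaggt
Nsdhl, chrX:72918392-72918520, plus strand: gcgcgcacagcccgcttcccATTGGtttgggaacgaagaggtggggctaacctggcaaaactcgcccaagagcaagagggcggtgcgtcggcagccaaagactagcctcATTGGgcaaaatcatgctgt
Fasn, chr11:120824582-120824657, minus strand: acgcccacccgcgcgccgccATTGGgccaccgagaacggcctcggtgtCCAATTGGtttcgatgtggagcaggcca

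The motifs were searched on both strands of the 250 bases before the start, for the 22 members with a RefSeq window. Windows for Fdps, Fdft1, Sqle, Stard4, Scd1 and Scd2 were not analysed here. Members and tested genes were counted as genes, and a gene with more than 1 window counted if any of them held the motif. Shares of all windows count single windows, so the 2 kinds of share are not alike. A CCAAT box was found for 18 of the 22 members (81.8%), for 40.3% of the tested genes with a window and in 33.8% of all 32544 windows. The SRE was found in 1 member, Hmgcs1 (4.55%, against 1.28% of the tested genes and 1.04% of all windows). There it started 137 bases before the start of transcription. Only exact matches to the letters given were counted, so variant sites were not searched. An EGR1 motif was found in 2 members, Dhcr7 and Insig1 (9.09%, against 10.6% of the tested genes and 4.74% of all windows). The Sp1 motif GGGCGG, which can overlap the EGR1 motif, was found for 18 members (81.8%), for 64.7% of the tested genes and in 33.0% of all windows. These counts describe the letters in the windows and say nothing of binding.

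H/R, a culture model of ischemia and reperfusion, was first compared with Sham. A gene was called when its adjusted p was under 0.05 in limma, fitted to log2(FPKM + 1) over all 13985 tested genes with Benjamini-Hochberg adjustment, and its change reached 1.2-fold. After H/R, 10 of the 28 members were called higher and 0 lower, whereas 1.60% of all tested genes were called higher and 2.65% lower. The 10 were Insig1, Hmgcs1, Idi1, Fdft1, Sqle, Cyp51, Msmo1, Nsdhl, Hsd17b7 and Scd2. By p alone, 15 members passed 0.05, all of them higher, and 0 passed as lower. Of the 13985 tested genes, 580 passed as higher and 1055 as lower by p. The median log2 difference was 0.19 over the members and -0.03 over all tested genes. In 18 members every H/R library lay above every Sham library, a pattern seen in 11.8% of tested genes. An exact permutation test of a single gene, 3 libraries against 3, cannot go below p = 0.1 and adds nothing here.

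EGR1OV was then compared with the same Sham libraries, with a threshold of 1.3-fold, so both sets of differences depend on the Sham values. Here 5 members were called lower (Idi1, Elovl6, Fasn, Acat2 and Msmo1) and 0 higher. Among all tested genes, 6.51% were called lower and 9.87% higher. By p alone, 13 members passed as lower and 3 as higher (Srebf1, Srebf2 and Acly), but these 3 differed by 1.12-fold at most. Of all 13985 tested genes, 2766 passed as lower and 3651 as higher by p. The median log2 difference was -0.11 over the members and 0.02 over all tested genes. All 3 EGR1OV libraries lay below all 3 Sham libraries in 13 members, and in 24.6% of tested genes.

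**Figure D1:**
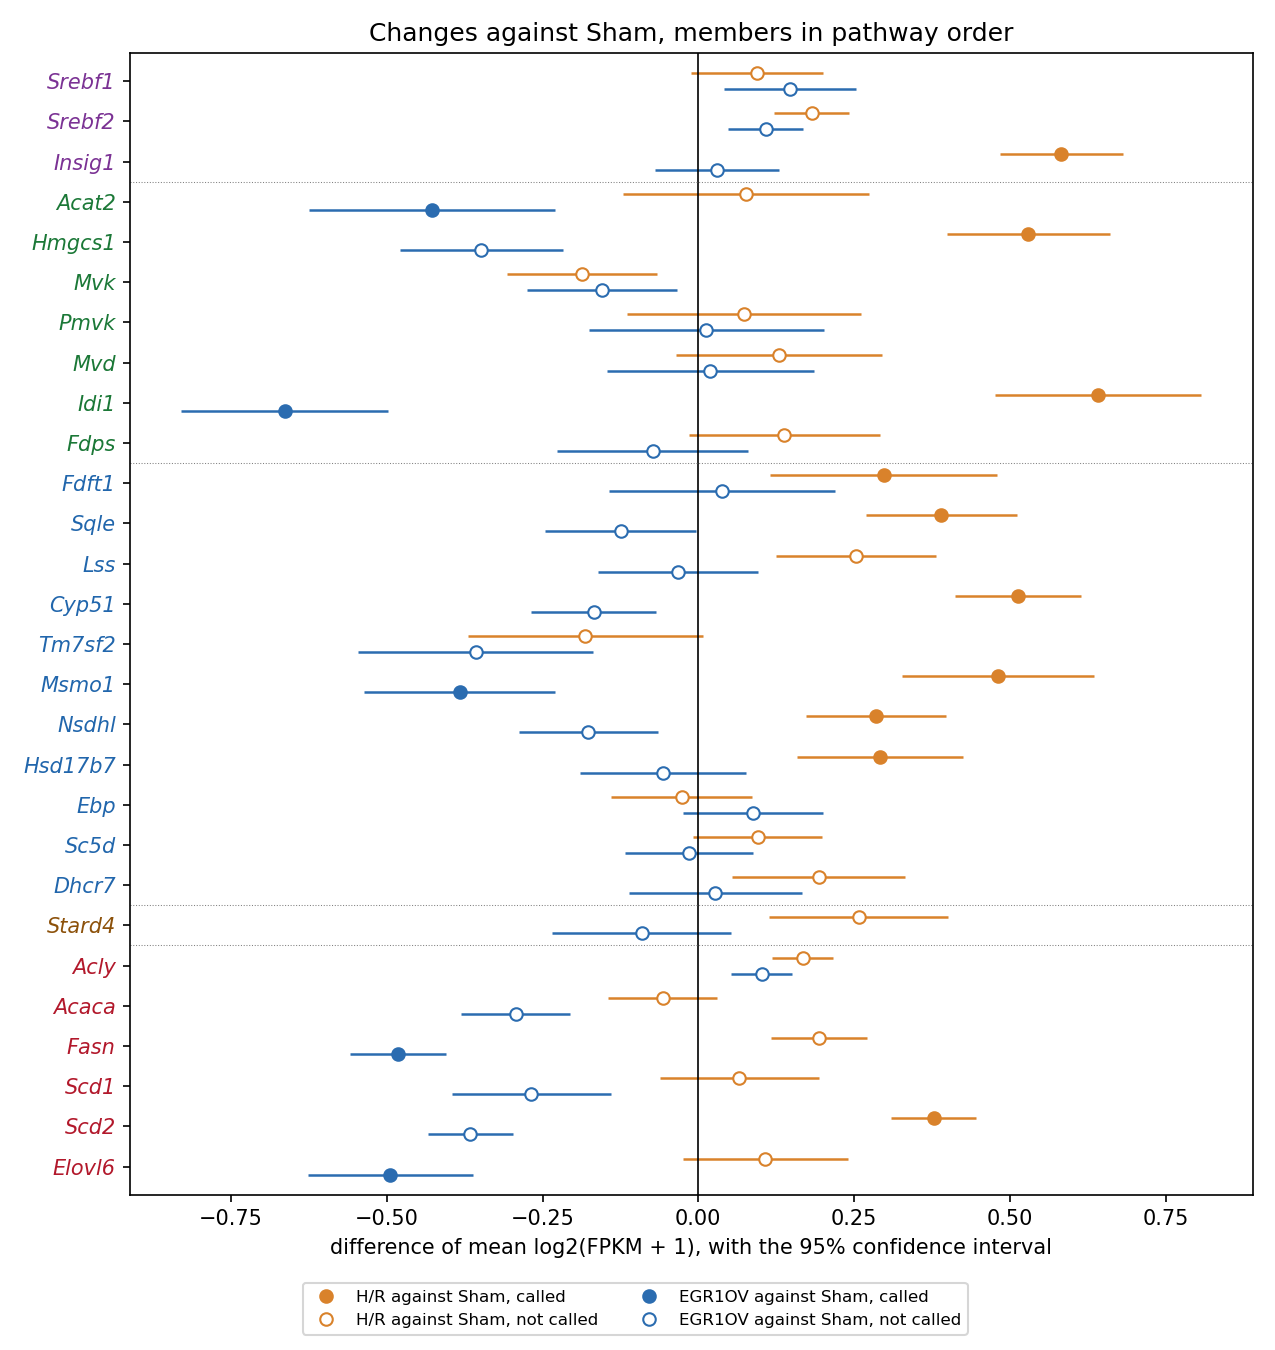
Differences from Sham in mean log2(FPKM + 1) for the 28 members, listed from top to bottom in pathway order with dotted lines between groups, with 95% confidence intervals from limma (n = 3 libraries per group); orange stands for H/R and blue for EGR1OV, filled points are called and open points are not. The 10 filled orange points all lie right of 0, up to 0.64 for Idi1, and the 5 filled blue points all lie left of 0, down to -0.66 for Idi1; both comparisons use the same Sham libraries.

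Of the 3 regulators, 1, Insig1, rose after H/R and 0 were called in EGR1OV. Insig1 (ENSMUSG00000045294, chromosome 5 from 28071363 to 28078662), the SREBP inhibitor that is also an SREBP target, was at 11.9, 12.4 and 11.5 FPKM in Sham, 18.8, 18.0 and 18.3 FPKM in H/R and 12.6, 11.5 and 12.6 FPKM in EGR1OV. The H/R libraries stood clear of all others, and the Sham and EGR1OV libraries overlapped. After H/R it rose 1.54-fold (log2 difference 0.58, SE 0.0439, adjusted p = 0.000185), while in EGR1OV its log2 difference from Sham was 0.03 with a 95% confidence interval of -0.07 to 0.13 (adjusted p = 0.613). Its promoter is the one above that holds both a CCAAT box and an EGR1 motif.

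Srebf2, whose product mainly drives cholesterol synthesis, was at 27.2, 26.6 and 26.6 FPKM in Sham, 30.4, 30.8 and 30.5 FPKM in H/R and 29.6, 29.1 and 28.2 FPKM in EGR1OV. Both treated groups lay above Sham without overlap, but the ratios of 1.14 and 1.08 did not reach the thresholds (adjusted p = 0.00417 and 0.00876). Srebf1, whose SREBP-1c form mainly drives fatty acid synthesis, was at 10.7 to 11.98 FPKM in Sham, 11.6 to 12.6 FPKM in H/R and 12.2 to 12.7 FPKM in EGR1OV, and was called in neither comparison (adjusted p = 0.227 and 0.0283). The gene-level values do not separate its transcripts. For neither SREBP gene was the EGR1OV mean below the Sham mean.

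In the mevalonate arm, 2 of 7 members rose after H/R (Hmgcs1 and Idi1) and 2 of 7 fell in EGR1OV (Idi1 and Acat2). Idi1 (ENSMUSG00000058258, chromosome 13 from 8885501 to 8892451), which turns isopentenyl diphosphate into its reactive isomer, moved most of all members. Its level was 5.73, 5.20 and 5.01 FPKM in Sham, 8.67, 8.30 and 9.59 FPKM in H/R and 3.04, 2.65 and 3.27 FPKM in EGR1OV. No library of any group overlapped another group. The mean was 5.31 ± 0.369 FPKM in Sham, 8.85 ± 0.661 FPKM in H/R and 2.99 ± 0.313 FPKM in EGR1OV (SD, n = 3). Relative to Sham this was a ratio of 1.67 after H/R (log2 difference 0.64, SE 0.0733, adjusted p = 0.00147) and of 0.562 in EGR1OV (-0.66, adjusted p = 7.24e-05).

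Hmgcs1 (ENSMUSG00000093930, chromosome 13 from 119690379 to 119708260), the HMG-CoA synthase at the entry to the mevalonate route and the member with the SRE shown above, was at 16.0, 15.7 and 15.9 FPKM in Sham. It was at 22.9, 23.1 and 24.0 FPKM in H/R and at 12.9, 10.9 and 13.0 FPKM in EGR1OV, again with no overlap between groups. The rise after H/R was 1.47-fold (log2 difference 0.53, SE 0.0578, adjusted p = 0.00115). In EGR1OV the ratio of 0.774 passed the p threshold (adjusted p = 0.000971) but not the fold threshold. Hmgcs1 was called there without EGR1OV replicate 1 or 3 (log2 difference -0.38 and -0.39) and with quantile normalization (-0.45). Antisense gene models share 12.1% of the exon bases of Hmgcs1 and 9.22% of those of Idi1, and the strand setting of the counting is not given in the sources used here.

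Acat2, the thiolase that joins acetyl-CoA units at the start of the route, was at 8.73, 7.53 and 9.07 FPKM in Sham and 7.82, 10.1 and 8.998 FPKM in H/R, and those 2 groups overlapped (adjusted p = 0.615). In EGR1OV it was at 5.80, 5.99 and 6.24 FPKM, below every other library. It fell there to 0.712 of Sham (log2 difference -0.43, SE 0.0872, adjusted p = 0.00319).

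The other 4 members of this arm were called in neither comparison with Sham. Mvk, the mevalonate kinase, averaged 6.89 ± 0.197 FPKM in Sham, 5.94 ± 0.493 FPKM in H/R and 6.08 ± 0.171 FPKM in EGR1OV, with both treated groups below every Sham library but no call (adjusted p = 0.0542 and 0.0391). Pmvk, the next kinase, stayed between 3.54 and 4.54 FPKM in all 9 libraries, and Mvd, the decarboxylase, between 5.80 and 7.35 FPKM, with overlap in both comparisons. Fdps, which makes farnesyl diphosphate, was the lowest member at 1.31 ± 0.0608 FPKM in Sham and 1.54 ± 0.0338 FPKM in H/R (log2 difference 0.14, 95% confidence interval -0.02 to 0.29). Another gene model on the same strand covers 26.7% of its exon bases, so its level is uncertain.

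**Figure D2:**
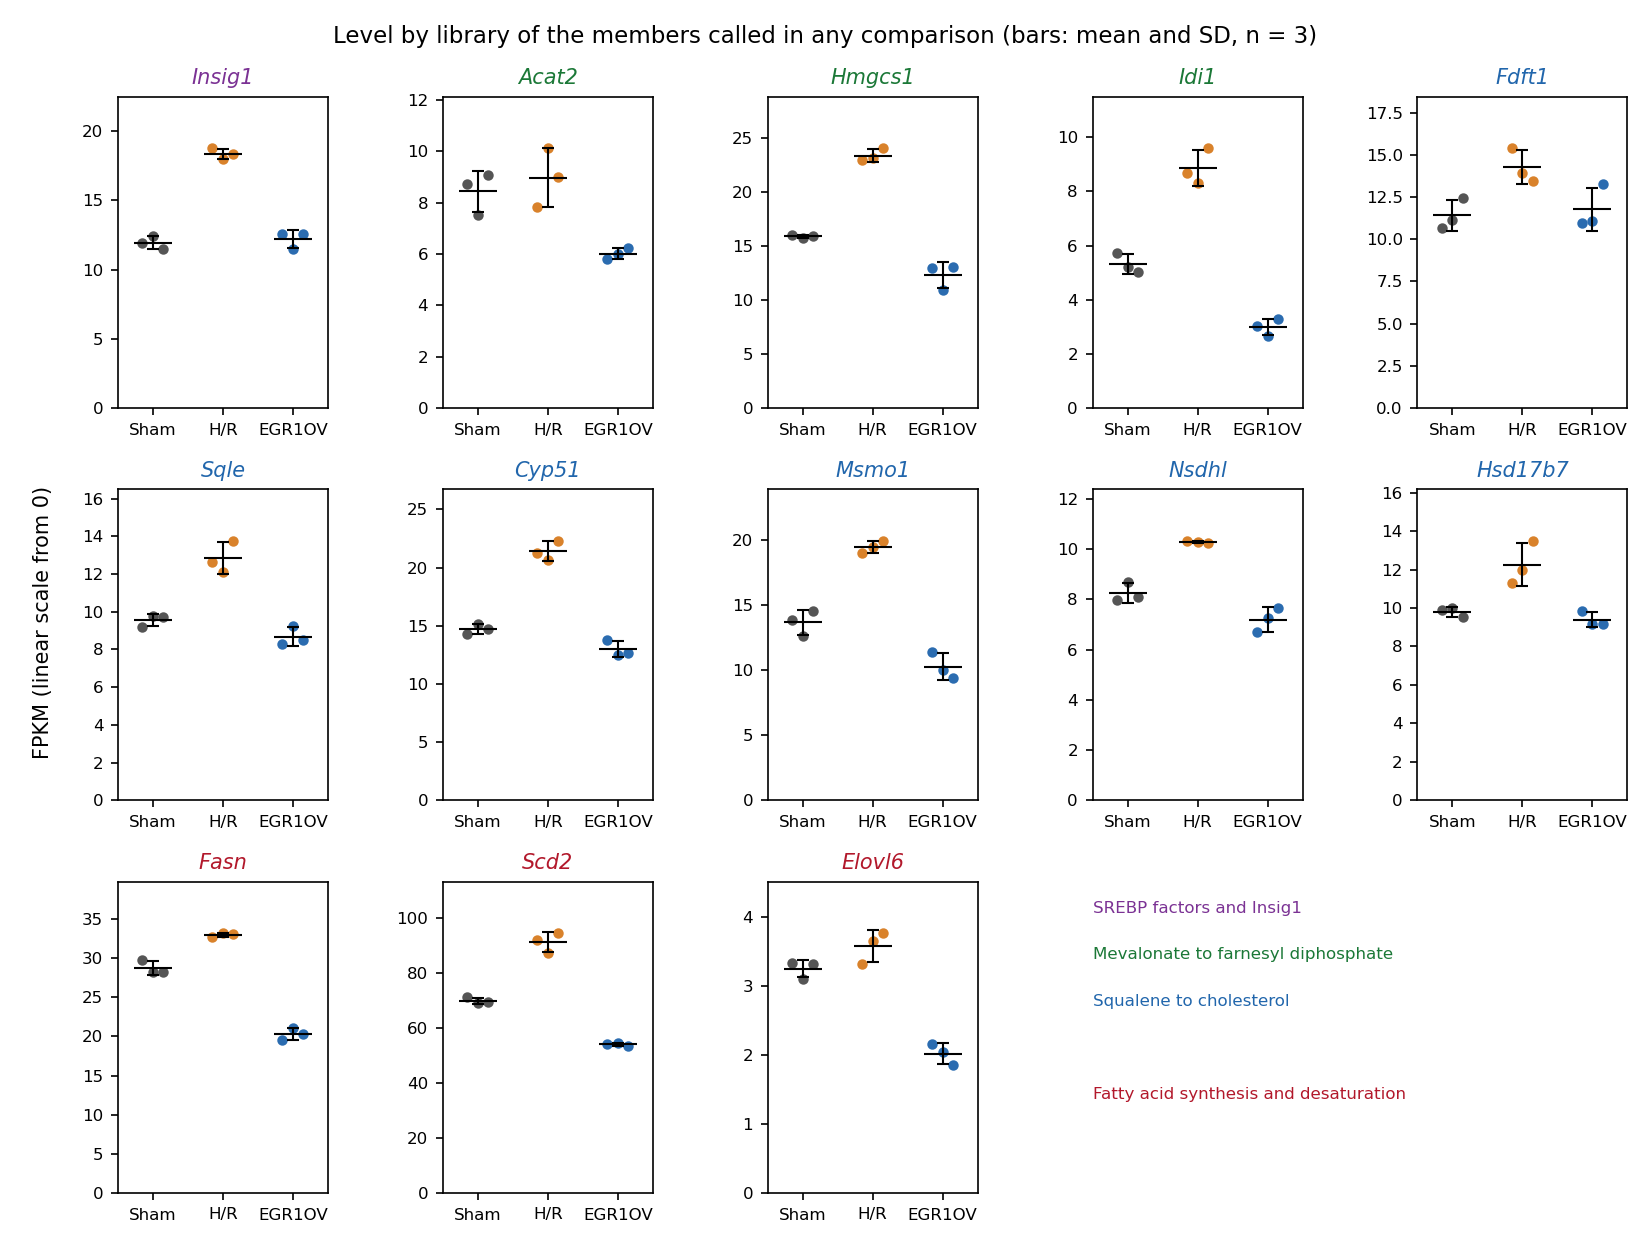
Level in FPKM, on linear axes that start at 0, of the 13 members called in any of the 3 comparisons; points are single libraries, black bars give the mean and SD (n = 3), and title colours give the pathway group. Idi1, Hmgcs1, Msmo1, Scd2, Cyp51, Nsdhl and Fasn have H/R above Sham and EGR1OV below it with no overlap, whereas Insig1 has Sham and EGR1OV at one level, 11.5 to 12.6 FPKM.

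From squalene to cholesterol, 6 of 11 members rose after H/R and 1, Msmo1, fell in EGR1OV. The median log2 difference of these 11 was 0.29 after H/R and -0.06 in EGR1OV. Cyp51 (ENSMUSG00000001467, chromosome 5 from 4081145 to 4104746), the lanosterol demethylase, was at 14.3, 15.1 and 14.7 FPKM in Sham, 21.3, 20.6 and 22.3 FPKM in H/R and 13.8, 12.5 and 12.7 FPKM in EGR1OV. All H/R libraries were above all Sham libraries, and the EGR1OV libraries lay just below Sham. It rose 1.46-fold after H/R (log2 difference 0.51, SE 0.0445, adjusted p = 0.000373), and in EGR1OV its ratio of 0.883 was not called (adjusted p = 0.0125).

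Msmo1 (ENSMUSG00000031604, chromosome 8 from 64718139 to 64733792), the sterol methyl oxidase that acts after Cyp51, was at 13.9, 12.6 and 14.5 FPKM in Sham, 18.9, 19.5 and 19.9 FPKM in H/R and 11.4, 10.01 and 9.37 FPKM in EGR1OV. Like Idi1, it kept all 3 groups apart. It rose 1.42-fold after H/R (log2 difference 0.48, SE 0.0679, adjusted p = 0.00351) and fell to 0.751 of Sham in EGR1OV (-0.38, adjusted p = 0.00144). That fall lies at the edge of the fold threshold. Without Sham replicate 1, Sham replicate 3, EGR1OV replicate 2 or EGR1OV replicate 3 it missed the threshold, with log2 differences of -0.37, -0.34, -0.37 and -0.33.

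Sqle, the squalene epoxidase, was at 9.19, 9.76 and 9.70 FPKM in Sham, 12.6, 12.1 and 13.8 FPKM in H/R and 8.32, 9.25 and 8.49 FPKM in EGR1OV. It rose 1.34-fold after H/R (log2 difference 0.39, SE 0.0538, adjusted p = 0.00307), and its EGR1OV libraries overlapped Sham (adjusted p = 0.0876). Nsdhl, a dehydrogenase of the demethylation steps, was at 7.97, 8.70 and 8.11 FPKM in Sham, 10.3, 10.3 and 10.2 FPKM in H/R and 6.69, 7.25 and 7.66 FPKM in EGR1OV. The 3 H/R values lay within a narrow band above Sham, and the rise was 1.24-fold (adjusted p = 0.0084). Without Sham replicate 1 the log2 difference of 0.26 fell just short of the fold threshold.

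Hsd17b7, the reductase that completes each demethylation, was at 9.91, 9.98 and 9.52 FPKM in Sham, 11.3, 11.98 and 13.5 FPKM in H/R and 9.85, 9.18 and 9.15 FPKM in EGR1OV. Every H/R library lay above all the others. It rose 1.25-fold after H/R (log2 difference 0.29, adjusted p = 0.0156). The call was lost without Sham replicate 3 (log2 difference 0.27, adjusted p = 0.0566) and without H/R replicate 3 (0.23, adjusted p = 0.032).

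Fdft1, the squalene synthase at the branch point to sterols, was at 10.7, 11.1 and 12.4 FPKM in Sham, 15.4, 13.9 and 13.4 FPKM in H/R and 10.97, 11.1 and 13.2 FPKM in EGR1OV. The H/R libraries did not overlap Sham, but the spread within groups was wide beside the rise of 1.25-fold, and the call was the weakest of the 10 (log2 difference 0.30, SE 0.0804, adjusted p = 0.045). It held in only 8 of 18 alternatives. It was lost without Sham replicate 1 or 2 (adjusted p = 0.131 and 0.117), without H/R replicate 1, 2 or 3 (0.121, 0.0911 and 0.0691) and without EGR1OV replicate 1 or 2 (0.0524 and 0.0544). Ctsb, a lysosomal protease gene on the opposite strand at 82.6 to 113 FPKM, covers 18.3% of the exon bases of Fdft1.

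Lss, Dhcr7, Ebp, Sc5d and Tm7sf2 were called in neither comparison with Sham. Lss, which closes the sterol ring, was at 2.95, 2.70 and 2.56 FPKM in Sham and 3.41, 3.43 and 3.49 FPKM in H/R. Its ratio of 1.26 passed the p threshold (adjusted p = 0.0237), but its log2(FPKM + 1) difference of 0.25 was short of the threshold, since the added 1 shrinks the change of a low gene, and with a pseudocount of 0.1 it was called. Dhcr7, the reductase of the last step, averaged 2.93 ± 0.138 FPKM in Sham and 3.50 ± 0.305 FPKM in H/R (adjusted p = 0.075). Ebp, the sterol isomerase, stayed between 8.14 and 9.69 FPKM and Sc5d, the desaturase after it, between 11.02 and 13.1 FPKM in all 9 libraries.

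Tm7sf2, a sterol reductase, was at 3.04, 2.27 and 2.61 FPKM in Sham, 2.04, 2.33 and 2.23 FPKM in H/R and 2.005, 1.81 and 1.69 FPKM in EGR1OV. All EGR1OV libraries were the lowest. Its ratio of 0.695 had a log2(FPKM + 1) difference of -0.36, just short of the threshold (adjusted p = 0.00667). It was called with a pseudocount of 0.1 (-0.50), without Sham replicate 2 (-0.43) and without EGR1OV replicate 1 (-0.40). Quantile normalization (-0.41) and voom on the recovered reads (-0.51) also gave a call. Vps51, on the same strand, covers 12.1% of its exon bases and was at 3.19 to 4.67 FPKM.

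Stard4, which carries cholesterol between membranes, was at 4.54, 4.75 and 4.90 FPKM in Sham, 6.25, 5.65 and 5.66 FPKM in H/R and 4.88, 4.12 and 4.17 FPKM in EGR1OV. The H/R libraries were all higher, with a ratio of 1.24 and a log2(FPKM + 1) difference of 0.26 that passed by p (adjusted p = 0.0333) and stopped just under the fold threshold. With a pseudocount of 0.1 the difference was 0.30 and was called.

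Of the 6 members of fatty acid synthesis, 1 (Scd2) rose after H/R and 2 (Fasn and Elovl6) fell in EGR1OV. The matching counts were 2 and 2 of 7 in the mevalonate arm and 6 and 1 of 11 from squalene to cholesterol. They depend on the fold thresholds, 1.2-fold for H/R and 1.3-fold for EGR1OV. The median log2 difference of the 6 was 0.14 after H/R and -0.33 in EGR1OV, beside 0.13 and -0.16 in the mevalonate arm. Whether the arms differ from each other was not tested. Fasn (ENSMUSG00000025153, chromosome 11 from 120805846 to 120824547), the fatty acid synthase, was at 29.7, 28.3 and 28.2 FPKM in Sham, 32.7, 33.2 and 33.1 FPKM in H/R and 19.5, 21.1 and 20.3 FPKM in EGR1OV. The 3 groups did not overlap. In EGR1OV it fell to 0.706 of Sham (log2 difference -0.48, SE 0.0338, adjusted p = 3.16e-06), and the ratio of 1.15 after H/R was not called (adjusted p = 0.00871).

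Elovl6, which lengthens palmitate, was at 3.33, 3.10 and 3.32 FPKM in Sham, 3.32, 3.65 and 3.76 FPKM in H/R and 2.15, 2.05 and 1.86 FPKM in EGR1OV. Sham and H/R overlapped, and EGR1OV lay below both. It fell to 0.621 of Sham in EGR1OV (log2 difference -0.49, adjusted p = 0.000115).

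Scd2 (ENSMUSG00000025203, chromosome 19 from 44293676 to 44306864), a desaturase that makes monounsaturated fatty acids, was the second most abundant member in Sham. It was at 71.1, 69.2 and 69.4 FPKM in Sham, 91.8, 87.3 and 94.3 FPKM in H/R and 54.0, 54.6 and 53.5 FPKM in EGR1OV, so that the groups lay far apart. After H/R it rose 1.304-fold (log2 difference 0.38, SE 0.0303, adjusted p = 0.000231). In EGR1OV its ratio of 0.773 passed by p (adjusted p = 1.02e-05) and lay just outside the fold threshold, with a log2 difference of -0.37. It was called lower there with median-ratio scaling (-0.39) and with quantile normalization (-0.43). Its neighbour Scd1, a desaturase of the same family, averaged 11.2 ± 0.576 FPKM in Sham, 11.8 ± 0.740 FPKM in H/R and 9.15 ± 0.508 FPKM in EGR1OV, and was not called (adjusted p = 0.49 and 0.00375). With quantile normalization Scd1 was called lower in EGR1OV (-0.38). Reads that fit both Scd genes may have been split between them by the authors' counting.

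Acly, which makes cytosolic acetyl-CoA for both routes, was the most abundant member and rested on 6589 to 8404 reads. It was at 75.9, 77.9 and 76.5 FPKM in Sham, 87.4, 86.6 and 85.0 FPKM in H/R and 82.8, 82.1 and 82.4 FPKM in EGR1OV. Both treated groups were above Sham in every library, by ratios of only 1.12 and 1.07. Acaca, the acetyl-CoA carboxylase that commits carbon to fatty acids, was at 4.29, 4.29 and 4.30 FPKM in Sham, 4.04, 4.05 and 4.17 FPKM in H/R and 3.41, 3.24 and 3.31 FPKM in EGR1OV. Its ratio of 0.773 in EGR1OV passed by p (adjusted p = 0.000229) but not by fold (log2 difference -0.29).

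A direct comparison of EGR1OV with H/R gave the widest gap between groups. Of the 28 members, 11 were called lower in EGR1OV and 0 higher, at the 1.3-fold threshold, while 6.94% of all tested genes were called lower and 11.9% higher. By p alone, 21 members were lower and 0 higher, while of all 13985 tested genes 2663 were lower and 4472 higher. The median log2 difference was -0.31 over the members and 0.05 over all tested genes. The 11 were Idi1, Hmgcs1, Msmo1, Scd2, Cyp51, Fasn, Elovl6, Insig1, Sqle, Acat2 and Nsdhl, and each of them was called in every alternative run at this fold threshold, the 9 fits that left out 1 library included, except that Elovl6 was not tested under the stricter filter on low values.

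Idi1 again led, with a ratio of 0.338 and a log2 difference of -1.31 (SE 0.0733, adjusted p = 6.22e-07), the only member past 2-fold. Hmgcs1 stood at 0.526 of H/R (log2 difference -0.88, adjusted p = 1.92e-06) and Msmo1 at 0.528 (-0.86, adjusted p = 6.48e-06). Scd2 was at 0.593 (-0.74, adjusted p = 6.34e-08), Cyp51 at 0.606 (-0.68, adjusted p = 1.81e-06) and Fasn at 0.615 (-0.68, adjusted p = 2.8e-07). Insig1, whose EGR1OV and Sham libraries overlapped, was at 0.665 of H/R (-0.55, adjusted p = 7.03e-06). At the other end Ebp (0.11), Srebf1 (0.05) and Mvk (0.03) had log2 differences above 0, and none of the 3 was called. Just inside the fold threshold lay Nsdhl (-0.46), and just outside lay Stard4, Hsd17b7 and Scd1 (-0.35, -0.35 and -0.33).

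**Figure D3:**
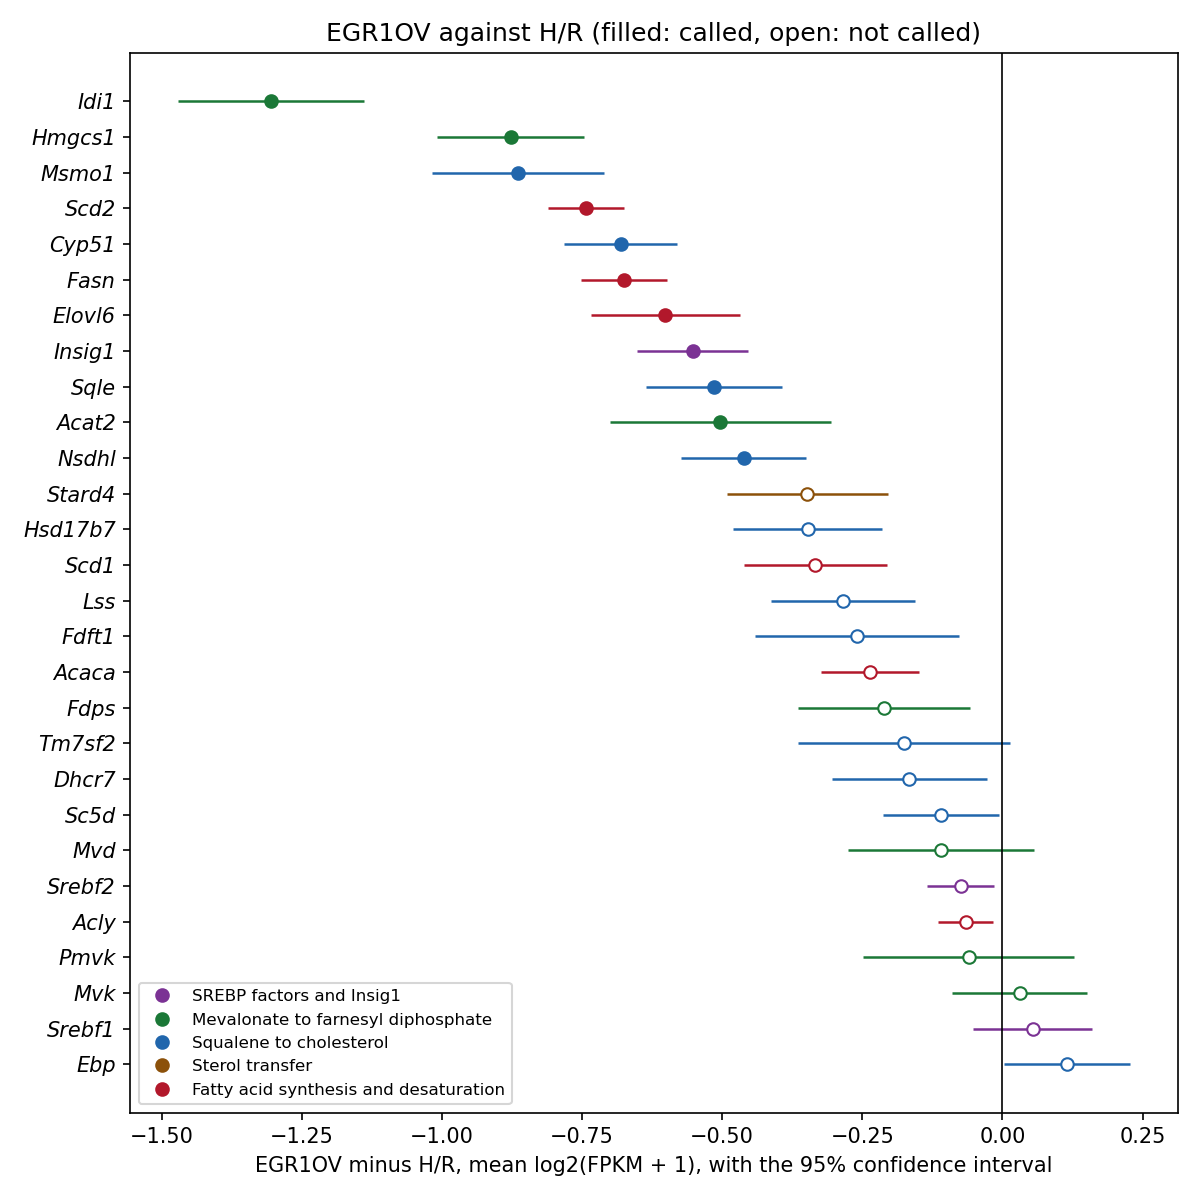
Difference between EGR1OV and H/R in mean log2(FPKM + 1) for each of the 28 members, sorted from lowest to highest, with 95% confidence intervals (n = 3 libraries per group); colour gives the pathway group, filled points are called and open points are not. The 11 called members run from -1.31 for Idi1 to -0.46 for Nsdhl, and all lie left of 0.

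Markers of the labelled cell type and of other cell types moved with the EGR1OV group. In EGR1OV against Sham, 9.87% of all tested genes were called higher and 6.51% lower. After H/R, 1.60% were called higher and 2.65% lower. Both proximal tubule markers that were tested, Lrp2 and Aqp1, were called lower in EGR1OV than in Sham (log2 difference -1.05 and -0.75) and were not called after H/R. Of the 9 general tubule markers, Krt8, Krt18 and Krt19 were called lower in EGR1OV and Epcam higher, and Epcam was also called higher after H/R. Of 12 leukocyte markers, 10 were tested, and in EGR1OV 9 were called lower than in Sham and 1, Cd14, higher. After H/R, 2 were called lower, Lyz2 and Adgre1, and 0 higher. Their summed level was 159 to 166 FPKM in Sham, 136 to 145 FPKM in H/R and 45.2 to 53.1 FPKM in EGR1OV. The sum over 6 endothelial markers was 15.4 to 16.1 FPKM in Sham, 15.5 to 16.5 FPKM in H/R and 12.5 to 13.5 FPKM in EGR1OV, with 1 of the 5 tested, Pecam1, called lower in EGR1OV. Fibroblast markers (7) summed to 32.8 to 34.5 FPKM in Sham, 39.3 to 40.6 FPKM in H/R and 37.9 to 42.9 FPKM in EGR1OV, with 1 of the 4 tested called higher in EGR1OV (Col1a2) and 2 after H/R (Col1a1 and Col1a2). Their part in the members' changes was not tested, and in bulk RNA fewer cells of a type and less RNA per cell cannot be told apart. Adipocyte markers (8) summed to under 1 FPKM in every library, with Plin1 and Cfd listed at 0 in all 9. Of the distal nephron markers, Umod was listed at 0 throughout, the 5 measured summed to 1.24 to 1.71 FPKM, and Aqp2 was not analysed here.

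The rest of the lipid pathway was read from 4 further lists, of which 72 genes were tested. After H/R, 1 of the 72 was called higher (Acsl4) and 0 lower. In EGR1OV against Sham, 6 were called higher and 2 lower, and in EGR1OV against H/R 8 were called higher and 3 lower. Among all tested genes, 9.87% were called higher and 6.51% lower in the first of these, and 11.9% and 6.94% in the second. The higher counts are near those shares. The medians of the 72 were -0.01, 0.05 and 0.06 on the log2 scale, close to those of all tested genes. Acsl4, which activates polyunsaturated fatty acids, was at 21.3, 21.7 and 22.6 FPKM in Sham, 27.3, 28.3 and 29.5 FPKM in H/R and 23.5, 21.0 and 22.1 FPKM in EGR1OV, with H/R alone set apart (log2 difference 0.36, adjusted p = 0.00238).

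The machinery that carries and cuts SREBPs was called in no comparison, with 0 of 12 tested genes called. By the adjusted p of limma alone, 4 were higher and 3 lower in EGR1OV than in Sham, and 0 were higher and 1 lower after H/R. Of all 13985 tested genes, 3651 were higher and 2766 lower in EGR1OV by that measure, and 580 higher and 1055 lower after H/R. Scap, the SREBP escort protein, was at 8.23, 8.11 and 8.59 FPKM in Sham, 7.47, 7.55 and 7.35 FPKM in H/R and 9.33, 9.92 and 9.66 FPKM in EGR1OV, and Insig2, the second Insig, at 15.8 to 18.0 FPKM in all 9 libraries. These genes were named after their values were seen.

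Of the other genes of sterol and isoprenoid synthesis, Coq2, a step of ubiquinone synthesis, was called higher in EGR1OV than in H/R (0.53, adjusted p = 2.29e-05). Among the other genes of fatty acid and glycerolipid synthesis, 2 of 27 were called higher in EGR1OV than in Sham (Mcat, 0.45, and Mlxip, 0.39) and 1 lower. The shares of all tested genes were 9.87% higher and 6.51% lower. The 1 called lower, Hacd1, a dehydratase of fatty acid elongation, went from 14.6, 14.5 and 15.1 FPKM in Sham to 8.27, 7.19 and 8.33 FPKM in EGR1OV (log2 difference -0.82, adjusted p = 3.24e-06).

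Of 19 tested genes of sterol uptake, oxysterols and the LXR receptors, 4 were called higher in EGR1OV than in Sham and 0 lower. Among all tested genes, 9.87% were called higher and 6.51% lower. The median log2 difference was 0.16 over the 19 and 0.02 over all tested genes. Npc2, which passes cholesterol out of the lysosome, was at 48.7, 47.3 and 49.1 FPKM in Sham, 45.6, 44.3 and 43.6 FPKM in H/R and 110, 108 and 113 FPKM in EGR1OV. The EGR1OV libraries stood far above the rest (log2 difference from Sham 1.17, SE 0.0284, adjusted p = 1.4e-09). Stard3, a sterol transfer protein of late endosomes, rose by 0.56 on the log2 scale (adjusted p = 9.67e-06) and Stard5 by 0.49 (adjusted p = 0.000196). The fourth, Cyp7b1, which hydroxylates oxysterols, went from a mean of 1.25 FPKM in Sham to 4.36 FPKM in EGR1OV. It is named, although its level is under the 5 FPKM set for naming, because it completes the count.

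**Figure D4:**
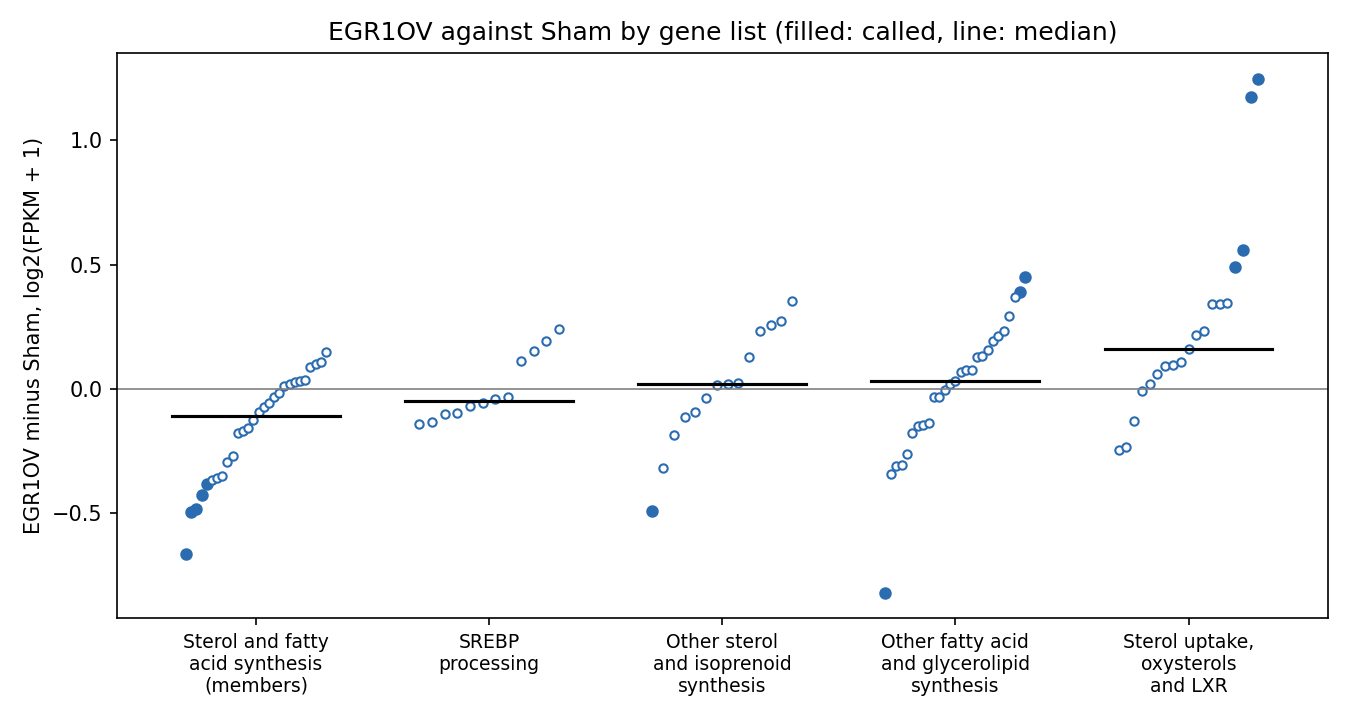
Difference between EGR1OV and Sham in mean log2(FPKM + 1) for the 28 members and for the 4 other lists (12, 14, 27 and 19 tested genes); each point is a gene, sorted within its list, filled points are called and black lines are medians. The members' median is -0.11, and the highest median, 0.16, is that of sterol uptake, oxysterols and LXR.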

How the data were processed

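RNA was sequenced in 9 libraries of mouse TECs, 3 each of Sham, H/R and EGR1OV, grouped by GEO title. The authors deposited 1 table of FPKM that keeps each library apart; 0 other columns of per-sample values were present. The submitters' processing notes name Bowtie2 2.2.3, HISAT2 2.1.0, TopHat2 and mm9 without roles, but 94.6% of gene positions in the table equal GENCODE M21 (GRCm38), so the table's own coordinates are printed, on that build. FPKM are not counts. Their low values are multiples of a step, which with exon lengths gave the depth and whole reads (within 0.02 reads) for 94.0% of 162954 recovered values.

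The 13985 genes that averaged 0.5 FPKM or more were tested as log2(FPKM + 1), which understates changes of low genes, in a single limma fit of all 9 libraries (limma 3.58.1, R 4.3.3; lmFit, eBayes with trend; two-sided; Benjamini-Hochberg). Every adjusted p is from this fit unless an alternative is named beside it. A call needed an adjusted p under 0.05 and 1.3-fold, or 1.2-fold where H/R was set against Sham. Both limits are those of the study, and EGR1OV against H/R took the first. "Higher", "rose" and "fell" with a count mean called genes unless "by p" is written, and ratios are of mean FPKM. The code was tested on simulated data.

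The members, gene lists and motifs were chosen with earlier results of these data known. All members are named. From the other lists, called genes with the largest change and at least 5 FPKM in the higher group were named, up to 5 a comparison, and some genes that this rule picks are not reported here. A rule for printing promoters (called in EGR1OV, with an SRE) was met by 0 genes, so those shown were chosen otherwise. Symbols turned into dates by a spreadsheet were restored in 26 rows, and 53 rows that share a symbol were kept apart by identifier.

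Results were recomputed with the replicate block, with each library left out, with only the 2 groups compared in the fit, with quantile or median-ratio scaling, with 0.1 as the pseudocount, with the filter dropped or set at 5 FPKM, without trend, at other fold thresholds and, chosen after seeing the data, limma voom on the recovered reads. Tables and figures used Python 3.11.15 with pandas 2.3.3, numpy 2.4.6, matplotlib 3.10.9 and scipy 1.17.1.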

Additional observations from a re-analysis of the deposited data

How the results depend on the processing

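The count of members called moved by more than 1.5 times in these cases. For EGR1OV against Sham (5 members) it was 9 with quantile normalization, 16 with no fold threshold and 0 at 2-fold. For H/R against Sham (10) it was 0 at 2-fold, and for EGR1OV against H/R (11) it was 21 with no fold threshold and 1 at 2-fold. Leaving out 1 library gave 4 to 7, 8 to 10 and 11 to 13 members in these comparisons. Over all genes, the calls for EGR1OV against Sham (2291) came to 1315 with a mean of at least 5 FPKM, 6417 with no fold threshold and 484 at 2-fold. For H/R against Sham (594) they came to 372, 1635 and 11, and to 995 with voom on the recovered reads, a choice made after seeing the data. For EGR1OV against H/R (2641) they came to 1520, 7135 and 489. The stricter filter tests fewer genes, and the cause of the other shifts was not tested.

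The share of higher calls among all genes moved with the scaling, from 60.3% to 45.9% with quantile normalization for EGR1OV against Sham. It moved from 37.7% to 58.2% with median-ratio scaling and 56.5% with quantile normalization for H/R against Sham, and from 63.2% to 51.0% and 42.5% for EGR1OV against H/R. No member changed sign of a called difference in any of these alternatives. Over all members and the alternatives that keep the fold threshold, a call was lost 13 times for H/R and 4 times for EGR1OV against Sham, and gained 9 times, 11 times and, for EGR1OV against H/R, 15 times.

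Correlations of the libraries' deviations from their group means ran from -0.195 to 0.263 for equal replicate numbers and from -0.222 to 0.179 for unequal ones. With 3 libraries a group, these cannot show whether equal numbers share a batch. With the replicate block, 5, 9 and 11 members were called, and the call that it changed was that of Fdft1 after H/R (adjusted p = 0.0652). Over all genes, the block gave 2309, 516 and 2654 calls. Depth of 16183617 to 18384022 reads limits the values of Fdps and Pmvk most, with 71 to 131 reads each.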

Other observations

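Ch25h, which makes the oxysterol 25-hydroxycholesterol, lay under the filter on low values and entered no comparison above. It was at 0.315, 0.17 and 0.494 FPKM in Sham, 0.183, 0.403 and 0.167 FPKM in H/R and 0.892, 0.635 and 1.23 FPKM in EGR1OV, so that every EGR1OV library lay above every other library. In the limma fit without the filter its log2(FPKM + 1) difference from Sham was 0.53, with an adjusted p of 0.028. These levels rest on only 4 to 29 reads a library and are imprecise. Ch25h was named after its values were seen. Abca1, the cholesterol exporter and an LXR target, was at 4.52, 4.06 and 3.95 FPKM in Sham, 4.26, 4.78 and 4.49 FPKM in H/R and 3.33, 3.44 and 3.33 FPKM in EGR1OV, with a log2 difference of -0.24 in EGR1OV (adjusted p = 0.00563) that did not reach the fold threshold. Abcg1 and Mylip, also LXR targets, lay the other way. Abcg1 was at 3.29, 2.65 and 2.68 FPKM in Sham and 3.97, 4.20 and 3.55 FPKM in EGR1OV (log2 difference 0.34, adjusted p = 0.00957), and Mylip at 5.68, 4.31 and 4.38 FPKM in Sham and 6.46, 6.68 and 5.84 FPKM in EGR1OV (0.35, adjusted p = 0.00863). Neither reached the fold threshold, and all 3 were named after their values were seen.

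In Sham, Acly and Scd2 were the most abundant members, at 76.8 ± 1.03 and 69.9 ± 1.04 FPKM (SD, n = 3), followed by Fasn at 28.7 ± 0.851 FPKM and Srebf2 at 26.8 ± 0.377 FPKM. All other members had Sham means between 1.31 FPKM (Fdps) and 15.8 FPKM (Hmgcs1).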
